A study of Homo sapiens with 6 samples.

Results

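The 9 genes KLK3, KLK4, FOLH1, PLPP1, UAP1, ODC1, EAF2, SGK1 and HERC3, known from prostate cells as genes whose RNA depends on androgen, were taken by symbol from a set of 14812 named genes. All 9 were measured, each by 1 probeset, a group of array probes read as a single value. RNA came from C4-2, an LNCaP-derived prostate cancer line selected for growth at castrate androgen levels, and was read on 6 Affymetrix Human Gene 2.0 ST arrays. The 3 groups held 2 arrays each, which the labels call biological replicates: cells given the vehicle DMSO (control), cells given the kinase inhibitor NU7441 at 1 µM for 24 h, and cells 96 h after transfection with a pool of siRNAs to PRKDC, the gene of the DNA-dependent protein kinase catalytic subunit (DNA-PKcs). All groups grew in hormone-proficient medium. The comparisons ask how the RNA of these genes differs when the kinase is inhibited and when its protein is depleted.

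Androgens are steroid hormones that switch the transcription of many prostate genes on or off, through short response elements in DNA that are often opened by the pioneer factor FOXA1, and with the help of cofactors that modify histones. In prostate epithelium the induced genes include secreted proteases of semen and enzymes of secretion and growth, and the repressed genes include FOLH1. DNA-PKcs is best known for joining broken DNA ends. NU7441 competes with ATP at the kinase, while an siRNA pool lowers the whole protein.

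The 2 perturbations also differed in duration and in delivery, and the labels do not say whether the control cultures received a control siRNA. The line is 1 cell line, and nothing beyond the word biological describes how the replicates were separated, so p-values measure the spread between these arrays. PRKDC itself was not analysed here, which leaves the depletion of the targeted gene unchecked. Of 12 listed luminal epithelium markers 7 were measured, and in control KRT18 read 360 and 405, EPCAM 558 and 589, and HOXB13 163 and 175.

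The promoter of KLK3 is shown because its product, prostate-specific antigen, is the classical readout of androgen action, and the 250 bases upstream of its start hold the closest match to a steroid hormone response element among the members. The sequence is from RefSeq (GRCh38.p14, plus strand, chr19:50854665-50854914), and capitals mark the 15 bases most like that element, searched as AGAACA, any 3 bases and TGTTCT, a palindrome that reads the same on both strands.

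KLK3: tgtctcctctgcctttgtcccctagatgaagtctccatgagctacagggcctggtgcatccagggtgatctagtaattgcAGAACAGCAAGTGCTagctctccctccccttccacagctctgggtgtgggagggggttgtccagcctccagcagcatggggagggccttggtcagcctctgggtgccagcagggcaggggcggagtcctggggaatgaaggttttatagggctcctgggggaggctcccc

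This match lay 170 to 156 bases before the start and shared 10 of the 12 fixed letters, as many or more of which were found in 1.18% of 35116 promoters of the same length. The best windows of KLK3, KLK4 and EAF2, the members with the largest or best-known differences below, are set out here with matching letters in capitals.

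KLK3: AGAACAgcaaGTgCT
KLK4: tttctAcctaGTTCT
EAF2: AGAACctgggGcTCc

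EAF2 shared 8 letters, a level reached by 42.0% of promoters, and KLK4 shared 6, reached by 99.3%. HERC3, SGK1 and ODC1 shared 7 letters and UAP1 shared 6, where the median promoter shares 7. A single arm of the element, AGAACA or TGTTCT, was present in 1 of the 7 members with a sequence, KLK3, and in 12.4% of all promoters. Sequences for FOLH1 and PLPP1 were not in the table used. A match describes letters within this window. Binding to it, and any part of it in the RNA differences, was not tested.

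The arrays themselves differed. Values never fell below 16, and the median intensity was 31.5 to 31.6 in control, 24.6 to 26.0 with NU7441 and 27.6 to 28.4 after knockdown. Between 1471 and 3797 probesets lay within 0.01 of that floor with NU7441, against 444 to 452 in control and 973 to 1206 after knockdown. The median gene accordingly had a log2 fold change of -0.23 with NU7441 against control, which became 0.05 after quantile normalization and 0.09 after median centring of the arrays. Among the 1338 genes with a mean log2 intensity of 8 or more, which include 7 of the 9 members, the median was 0.21 as deposited, so NU7441 differences below are also set against genes of like brightness.

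With NU7441, 3 of the 9 genes rose (KLK4, HERC3 and KLK3), 3 fell (EAF2, SGK1 and ODC1), and FOLH1, UAP1 and PLPP1 did not pass the test. Calls are at an adjusted p under 0.05 from limma with Benjamini-Hochberg adjustment over all 14812 genes, of which 33.2% were called: 10.8% higher and 22.4% lower. Of the bright genes, 67.5% were called, against 4 of the 7 bright members, so the number of calls among the members was near that of genes as bright. The median log2 fold change of the members was 0.28. After knockdown 0 of 9 passed in limma, where 0.77% of all genes and 3.89% of bright genes were called. At an unadjusted limma p under 0.05 there were 3, all higher (EAF2, HERC3 and UAP1). The share of all genes at that unadjusted level is not given, here or for the lists below, so such counts lack a baseline. Both comparisons use the same 2 control arrays. The plot of intensity by group shows the 6 values of each gene.

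**Figure D1:**
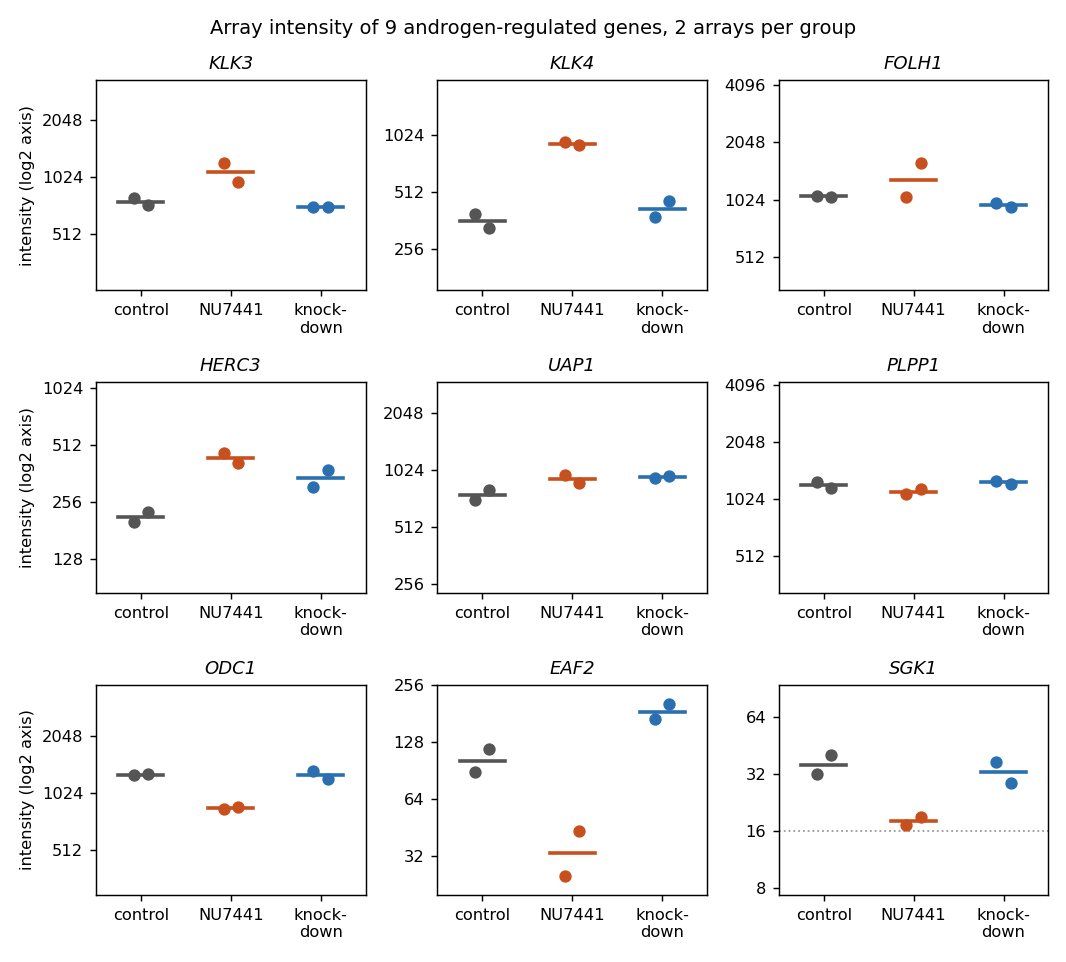
Array intensity (log2 axis) of the 9 genes in 2 control, 2 NU7441 and 2 knockdown arrays; each point is 1 array, each bar the geometric mean, and the dotted line in the SGK1 panel the floor of 16. KLK4 reads 904 to 938 with NU7441 against 331 to 392 in control, while EAF2 separates the groups in the order NU7441, control, knockdown.

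Among the secreted proteases, KLK3 encodes prostate-specific antigen, which cleaves semenogelins in semen. Probeset 16864616 read 793 and 726 in control, 1213 and 969 with NU7441, and 710 and 711 after knockdown. Both NU7441 arrays lay above both controls, and both knockdown arrays lay just below them. KLK3 rose 1.43-fold with NU7441, a log2 fold change of 0.51 ± 0.12 (standard error, n = 2 per group, limma adjusted p = 0.0110), or 0.30 beyond genes of like brightness. After knockdown the difference from control was -0.09 ± 0.12 (limma adjusted p = 0.694, 95% interval -0.36 to 0.17), or -0.21 relative to genes of like brightness. The NU7441 call was lost without either control array, as were most calls over all genes. The log2 fold change was then 0.58 without control replicate 1 and 0.45 without control replicate 2. It was also lost without the mean-variance trend (limma adjusted p = 0.0655).

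KLK4 encodes a serine protease that activates other kallikreins and is also needed in tooth enamel. Its probeset, 16874672, gave 392 and 331 in control, 938 and 904 with NU7441, and 376 and 461 after knockdown. The NU7441 arrays stood far above the others, while knockdown and control overlapped. KLK4 rose 2.56-fold with NU7441 (log2 fold change 1.35 ± 0.14, limma adjusted p = 0.000564, n = 2 per group), 1.14 beyond genes of like brightness, and was called in 15 of 15 alternatives. Knockdown differed from control by 0.21 ± 0.14 (limma adjusted p = 0.433, 95% interval -0.10 to 0.52).

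KLK3 and KLK4 belong to a chromosome 19 cluster in which KLK2, another androgen-regulated protease close to KLK3 in sequence, lies between them. Because KLK2 and KLK3 are similar, probes for either may read some of the other. KLK2 read 460 and 364 in control, 268 and 340 with NU7441, and 373 and 403 after knockdown. Its NU7441 arrays lay below both controls, opposite to its neighbours, but the difference of -0.44 ± 0.17 missed the threshold (limma adjusted p = 0.0667). Of 15 kallikreins measured, KLK3 and KLK4 were higher with NU7441 and 4 were lower: KLK6 (-1.19), KLK11 (-0.97), KLK5 (-0.92) and KLK12 (-0.58), on the log2 fold change scale, with a median of -0.58 over the family. These 4 were among 12 kallikreins under an intensity of 100 on all arrays, and under quantile normalization or median centring only KLK6 of the 4 was still called.

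Neither cell-surface enzyme passed the test. FOLH1 encodes prostate-specific membrane antigen, a glutamate carboxypeptidase used as an imaging target, and is known as a gene that androgen represses. Probeset 16738283 read 1067 and 1061 in control, 1058 and 1602 with NU7441, and 983 and 929 after knockdown. A single NU7441 array stood high, the other sat at the control level, and both knockdown arrays were below all others. The log2 difference with NU7441 was 0.29 ± 0.16 (limma adjusted p = 0.179, 95% interval -0.06 to 0.65, n = 2 per group), of which 0.08 was beyond genes of like brightness. It was -0.01 without NU7441 replicate 2 and 0.59 (limma adjusted p = 0.000266) without replicate 1, so replicate 2 carries it. Knockdown differed from control by -0.16 ± 0.16 (limma adjusted p = 0.625). FOLH1 has near-identical relatives in the genome, and probes may read RNA of these copies.

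PLPP1 encodes a phospholipid phosphatase that removes phosphate from phosphatidic acid and lysophosphatidic acid. Its probeset, 16996234, gave 1251 and 1163 in control, 1082 and 1159 with NU7441, and 1279 and 1229 after knockdown. NU7441 arrays were lowest by a narrow margin and knockdown overlapped control. The log2 difference was -0.11 ± 0.08 with NU7441 (limma adjusted p = 0.323, 95% interval -0.29 to 0.07) and 0.06 ± 0.08 after knockdown (limma adjusted p = 0.744). The NU7441 value was -0.32 relative to genes of like brightness, and 0.21, again not called, under median centring.

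Of the biosynthetic enzymes, UAP1 makes UDP-N-acetylglucosamine, the sugar donor of protein glycosylation. Probeset 16673056 read 711 and 802 in control, 967 and 871 with NU7441, and 936 and 958 after knockdown. Both treated groups lay above both controls and overlapped each other. Neither difference passed: 0.28 ± 0.10 with NU7441 (limma adjusted p = 0.0534), of which 0.07 was beyond genes of like brightness, and 0.33 ± 0.10 after knockdown (limma adjusted p = 0.123, n = 2 per group). The NU7441 difference was called under median centring (0.60, limma adjusted p = 0.00707), without NU7441 replicate 2 (0.0113) and after dim genes were dropped (0.0440).

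ODC1 encodes ornithine decarboxylase, the first and rate-limiting enzyme of polyamine synthesis, a pathway unusually active in prostate. Its probeset, 16894402, gave 1269 and 1280 in control, 840 and 862 with NU7441, and 1335 and 1207 after knockdown. The NU7441 arrays were tightly grouped and low, and knockdown arrays fell on either side of control. ODC1 fell with NU7441, from a geometric mean of 1274 to 851 (log2 fold change -0.58 ± 0.08, limma adjusted p = 0.00171, n = 2 per group), or -0.79 relative to genes of like brightness. Knockdown differed from control by -0.01 ± 0.08 (limma adjusted p = 0.980, 95% interval -0.19 to 0.18). Under median centring, which lifts the bright genes of the NU7441 arrays, the NU7441 value was -0.26 and not called (limma adjusted p = 0.0812).

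Among the regulators, EAF2 encodes an ELL-associated elongation factor, found as an androgen-induced growth suppressor of prostate. Probeset 16944574 read 88.9 and 118 in control, 25.3 and 43.6 with NU7441, and 170 and 203 after knockdown. No group overlapped another. EAF2 fell 3.09-fold with NU7441 (log2 fold change -1.63 ± 0.29, limma adjusted p = 0.00438, n = 2 per group), -1.58 relative to genes of like brightness. Its NU7441 replicates differed, 1 near its array's median (25.3 against 24.6) and the other above it (43.6 against 26.0). With 16 taken off the log2 fold change was -2.43. Knockdown stood 1.81-fold above control, at 0.86 ± 0.29, which missed the threshold (limma adjusted p = 0.158, 95% interval 0.20 to 1.51). The NU7441 call was lost without control replicate 2 (log2 fold change -1.42), as were most calls over all genes.

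SGK1 encodes a serine/threonine kinase of the AGC family that is induced by steroid hormones and acts on ion transport and survival. Its probeset, 17023810, gave 31.8 and 40.1 in control, 17.3 and 19.1 with NU7441, and 37.0 and 28.8 after knockdown. The NU7441 arrays sat almost on the floor of 16 and knockdown overlapped control. SGK1 fell 1.97-fold as deposited (log2 fold change -0.98 ± 0.23, limma adjusted p = 0.0122, n = 2 per group), -0.68 relative to genes of like brightness, and a fold so near a floor is compressed: with 16 taken off it was -3.30. The call was lost under quantile normalization (-0.63, limma adjusted p = 0.0559). It was also lost without control replicate 1 (log2 fold change -1.14) or 2 (-0.81), as were most calls over all genes.

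HERC3 encodes a ubiquitin ligase of the HECT family. Probeset 16968797 read 199 and 226 in control, 464 and 410 with NU7441, and 307 and 378 after knockdown. Both treated groups stood above control, NU7441 highest, and no groups overlapped. HERC3 rose 2.06-fold with NU7441 (log2 fold change 1.04 ± 0.16, limma adjusted p = 0.00215, n = 2 per group), 0.83 beyond genes of like brightness, and was called in 15 of 15 alternatives. The knockdown difference of 0.68 ± 0.16, or 1.60-fold, had a limma adjusted p of 0.0735.

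The knockdown result for EAF2, HERC3 and UAP1 rested on how the spread was estimated. When the knockdown and control arrays were fitted without the NU7441 arrays, all 3 passed (limma adjusted p = 0.00203, 0.00202 and 0.0182), and so they did without NU7441 replicate 1 or 2. In that fit 19.2% of all genes were called, against 0.77% with all arrays. The NU7441 replicates differed more from each other (Pearson r = 0.937 over genes) than the control (0.988) or knockdown (0.970) replicates.

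**Figure D2:**
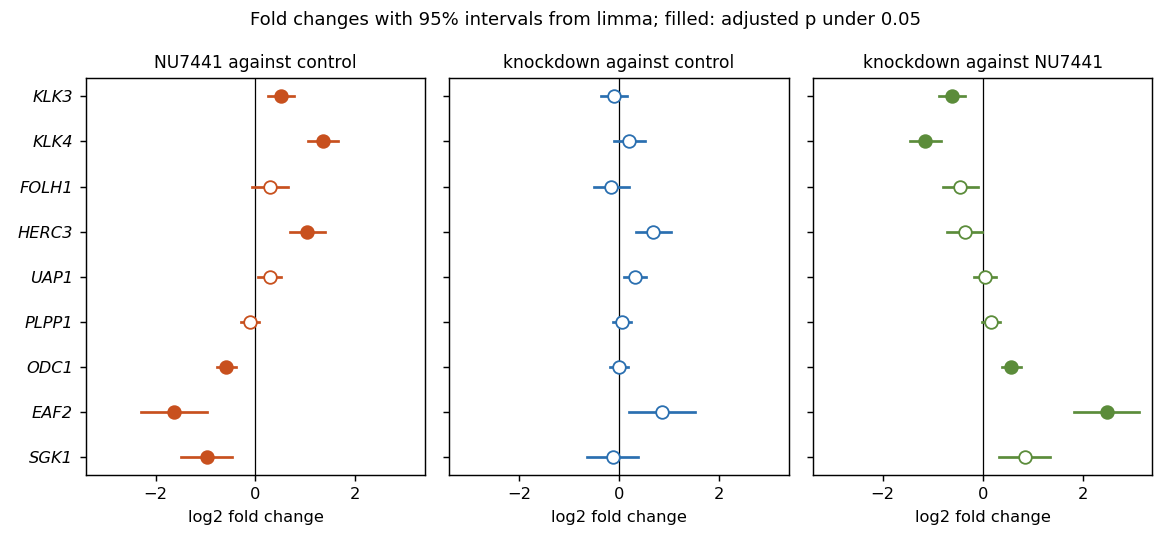
Log2 fold changes of the 9 genes with 95% limma intervals, in panels for NU7441 over control, knockdown over control and knockdown over NU7441 (2 arrays per group); filled points have an adjusted p under 0.05. Points are filled for 6 genes in the first panel, 0 in the second and 4 in the third.

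Set directly against each other, knockdown and NU7441 differed in 4 of the 9 genes, where 8.67% of all genes were called (5.83% higher and 2.84% lower after knockdown). Of the bright genes 29.9% were called, against 3 of the 7 bright members. EAF2 was 5.60-fold higher after knockdown (2.48 ± 0.29, 95% interval 1.83 to 3.14, limma adjusted p = 0.00275, n = 2 per group), or 3.41 on the log2 scale with 16 taken off, and ODC1 was 1.49-fold higher (0.58 ± 0.08, limma adjusted p = 0.00586). KLK4 was lower after knockdown by -1.14 ± 0.14 (limma adjusted p = 0.00279) and KLK3 by -0.61 ± 0.12 (limma adjusted p = 0.0161). KLK3 and KLK4 thus read highest with NU7441, and EAF2 and ODC1 lowest. SGK1 was at 0.85 ± 0.23 (limma adjusted p = 0.0503) and FOLH1 at -0.45 ± 0.16 (limma adjusted p = 0.106). HERC3 differed by -0.36 ± 0.16 (95% interval -0.71 to -0.01, limma adjusted p = 0.172) and UAP1 by 0.04 ± 0.10 (-0.18 to 0.27, limma adjusted p = 0.801), intervals that do not show that the treatments act alike. All 4 calls were lost without knockdown replicate 1 or 2, where the limma adjusted p lay between 0.0864 and 0.175. In those fits 7 and 0 of 14812 genes were called, and the log2 differences were as large or nearly so (KLK3 -0.61 in both, EAF2 2.61 and 2.35). The remaining knockdown array is then assumed to vary like the other groups. Length of exposure, transfection and mode of action cannot be told apart in this comparison.

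The scaling of the arrays shifted these values. Median centring raised every NU7441 difference, to 0.83 for KLK3 and 1.67 for KLK4, and brought in FOLH1 (0.61, limma adjusted p = 0.00595). Quantile normalization left KLK3 (0.43), KLK4, HERC3, EAF2 and ODC1 (-0.70) called and SGK1 uncalled. The directions of KLK3, KLK4, HERC3, EAF2, SGK1 and ODC1 with NU7441 were those of the deposited values under all 3 scalings, and only PLPP1 changed sign.

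**Figure D3:**
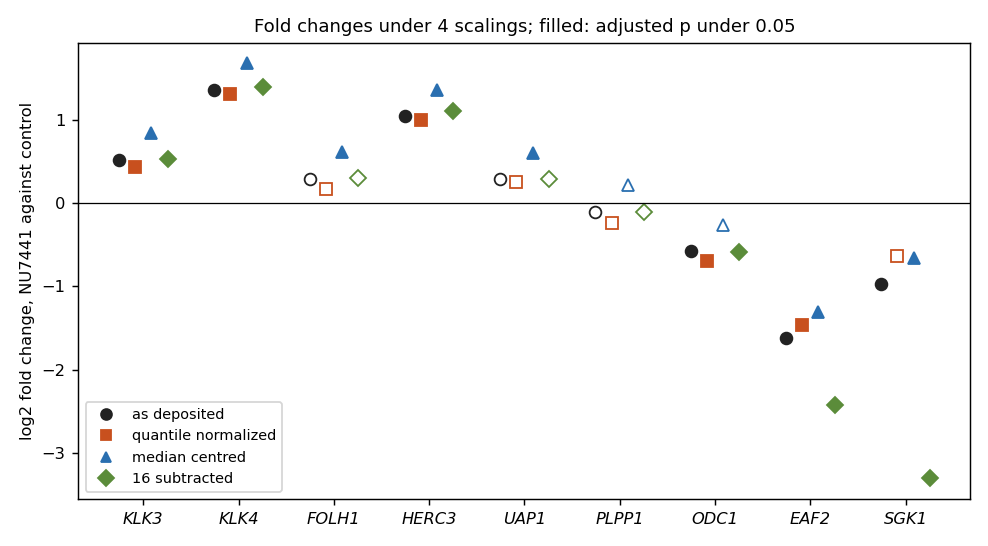
Log2 fold change of the 9 genes, NU7441 against control, from values as deposited, quantile normalized, median centred, or with the floor of 16 subtracted (2 arrays per group); filled symbols have a limma adjusted p under 0.05. KLK4 and HERC3 stay near or above 1 throughout, while SGK1 ranges from -0.63 to -3.30.

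A wider androgen response list, 54 symbols of which 35 were measured, holds the members too, FOLH1 included. With NU7441, 8 of the 35 rose and 9 fell, where 33.2% of all genes and 67.5% of bright genes were called, shares against which the NU7441 counts of the lists that follow are also to be read. The list's median was -0.23, as for all genes, and -0.07 against 0.05 for all genes under quantile normalization. The non-members that rose included INSIG1, a brake on sterol synthesis (347 and 348 in control, 783 and 758 with NU7441, 1.15 ± 0.13, limma adjusted p = 0.000728), SCD, the fatty acid desaturase (0.91 ± 0.10), and NDRG1, a growth-arrest gene (0.87 ± 0.18). Those that fell included SMS, spermine synthase (572 and 643 in control, 157 and 239 with NU7441, -1.65 ± 0.20, limma adjusted p = 0.00100), STK39, a kinase of ion transport (-1.58 ± 0.27), and FKBP5, a chaperone partner of steroid receptors (-0.84 ± 0.15). All 8 higher calls, and 6 of the 9 lower ones, held under both quantile normalization and median centring; CENPN, ODC1 and SGK1 did not. Leaving out either control array lowered the list's calls, as it lowered those over all genes. Without the 9 members, 5 of 26 genes rose and 6 fell.

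After knockdown 1 of the 35 was called, ELOVL5, a fatty acid elongase, at 856 and 873 in control, 917 and 899 with NU7441, and 1170 and 1256 after knockdown (0.49 ± 0.08, limma adjusted p = 0.0437). In this comparison 0.77% of all genes and 3.89% of bright genes were called. The list's median was 0.05 against -0.09 for all genes. With the replicate number as a block 0 of the list were called, where 37 of all 14812 genes were. Which array was left out also changed the list's calls, as it changed those of all genes. Knockdown against NU7441 gave 8 higher and 6 lower genes, where 8.67% of all genes and 29.9% of bright genes were called. SCD (-1.25 ± 0.10) and INSIG1 (-0.88 ± 0.13) were among the lower with KLK3 and KLK4. Under both other scalings 6 of the 8 higher and 6 of the 6 lower calls held, and ELOVL5 and KRT19 did not.

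**Figure D4:**
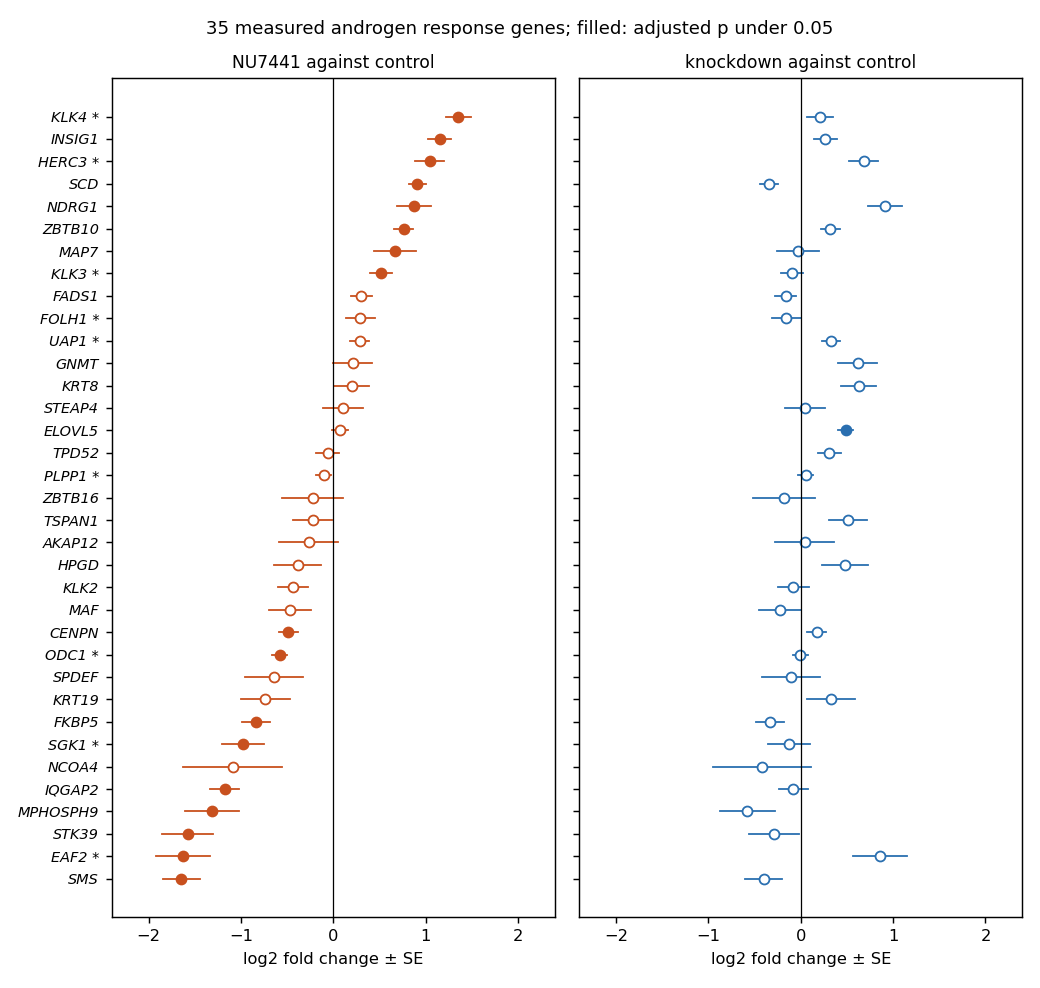
Log2 fold change ± standard error (limma, 2 arrays per group) of the 35 measured androgen response genes for NU7441 and knockdown against the same controls, sorted by the NU7441 value; stars mark the 9 members, and filled points have an adjusted p under 0.05. With NU7441 filled points lie at both ends, 8 higher and 9 lower, while ELOVL5 is the only filled point after knockdown.

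Genes known to be repressed by androgen, as FOLH1 is, were a smaller list. With NU7441, 4 of 11 measured rose, led by GRB10, an adaptor of growth factor receptors (1.72 ± 0.20), and ACKR3, a chemokine receptor (0.93 ± 0.14). PSCA, NTN1 and CCN3 fell as deposited, and 0 of these 3 were called under either other scaling. The list's median was 0.18. After knockdown SYT4, a vesicle protein, was called higher (0.95 ± 0.14, limma adjusted p = 0.0307), where 0.77% of all genes were called. SYT4 was not called with 16 taken off or without the mean-variance trend, where 3 and 4 of 14812 genes were called, 0 of them higher.

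Of 32 listed genes that take part in transcription by steroid hormones, cofactors and chaperones among them, 20 were measured, and with NU7441 8 rose and 4 fell (median 0.19), or 10 and 3 under median centring. FOXA1, the pioneer factor, read 470 and 471 in control, 620 and 681 with NU7441, and 389 and 423 after knockdown. It rose with NU7441 (0.46 ± 0.11, limma adjusted p = 0.0146) and was lower after knockdown than with NU7441 (-0.68 ± 0.11, limma adjusted p = 0.0103), the same order of groups as for KLK3. PTGES3, the p23 co-chaperone that helps steroid receptors hold hormone, read 1149 and 1348 in control, 265 and 237 with NU7441, and 978 and 880 after knockdown. It fell by 2.31 ± 0.12 on the log2 scale with NU7441 (limma adjusted p = 2.83e-05). KDM1A, a histone demethylase, fell too (-2.09 ± 0.39), while the demethylase KDM3A (1.22 ± 0.20) and the acetyltransferase EP300 (0.72 ± 0.12) rose. After knockdown 0 of the 20 were called in limma, with 2 higher and 4 lower at an unadjusted p under 0.05.

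Around ODC1, 18 of 22 listed polyamine genes were measured, of which 6 rose and 7 fell with NU7441 (median 0.23). Of the 7 that fell, 4 encode enzymes of synthesis, ODC1 among them. AMD1, which makes the aminopropyl donor, read 965 and 945 in control and 499 and 573 with NU7441 (-0.84 ± 0.11, limma adjusted p = 0.00132). SMS is given above, and SRM, spermidine synthase, fell by 0.51 ± 0.12. AZIN2, an antizyme inhibitor, fell from 405 and 375 to 99.3 and 61.3 (-2.32 ± 0.23). Those that rose included SAT1, the acetyltransferase that starts polyamine breakdown, at 377 and 419 in control and 770 and 780 with NU7441 (0.96 ± 0.11), and OAZ1, the antizyme that sends ornithine decarboxylase for degradation (0.43 ± 0.09). Both other scalings kept 4 of the 6 higher and 4 of the 7 lower calls, losing AZIN1, OAZ1, MTAP, ODC1 and SRM. After knockdown 0 of the 18 passed, with AMD1 at -0.57 ± 0.11 (limma adjusted p = 0.0535). AZIN2 (1.85 ± 0.23), SMS (1.25 ± 0.20), ODC1 and SRM (0.53 ± 0.12) were higher after knockdown than with NU7441, and 2 other genes were lower. In this comparison 8.67% of all genes and 29.9% of bright genes were called, and SRM was not called under both other scalings.

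Around UAP1, 11 of 15 hexosamine genes were measured, 3 higher and 4 lower with NU7441 (median 0.28), or 5 higher and 2 lower under median centring. GNPNAT1 and RENBP were not called lower under both other scalings. OGT, the transferase that uses the product of UAP1, rose (0.80 ± 0.14), and GNPDA1, a glucosamine-phosphate deaminase, rose (1.04 ± 0.19). UAP1L1, a relative of UAP1, fell (-1.21 ± 0.24), and GFPT1, the entry enzyme of the pathway, was at -0.04 ± 0.13 (limma adjusted p = 0.840). After knockdown 0 of 11 passed in limma, with 3 higher and 0 lower at an unadjusted p under 0.05.

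Around EAF2, 10 of 15 ELL and elongation genes were measured, 2 higher and 3 lower with NU7441 (median 0.23), or 4 higher and 2 lower under median centring. EAF1, the paralogue of EAF2, moved the other way, from 193 and 182 in control to 297 and 310 with NU7441 (0.69 ± 0.15, limma adjusted p = 0.00919). HEXIM1, an inhibitor of the elongation kinase P-TEFb, rose (0.77 ± 0.14), and ICE1, a scaffold of the little elongation complex, fell (-1.83 ± 0.33). After knockdown 0 of the 10 passed in limma, with 3 higher and 2 lower at an unadjusted p under 0.05.

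SGK1 and FKBP5 are also glucocorticoid targets. Of 15 such genes measured, 2 rose with NU7441, DUSP1 (0.87 ± 0.22) and BCL6 (0.73 ± 0.15). There were 5 that fell, including PER1, a clock gene (-1.20 ± 0.24), and MT1X, a metallothionein (-0.77 ± 0.12). Both other scalings kept the 2 higher and 3 of the 5 lower calls, losing SGK1 and TFCP2L1. After knockdown the metallothioneins MT2A (0.68 ± 0.08, limma adjusted p = 0.0187) and MT1X (0.67 ± 0.12, limma adjusted p = 0.0441) were called higher. In that comparison 0.77% of all genes and 3.89% of bright genes were called. Neither was called with 16 taken off or without the mean-variance trend, where 3 and 4 of 14812 genes were called, 0 of them higher. MT1X read 624 and 736 in control, 421 and 376 with NU7441, and 1031 and 1135 after knockdown, no group overlapping another, in the order seen for EAF2.

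Markers of other states moved alongside. Of 8 measured neuroendocrine markers of 11 listed, 4 were lower with NU7441 and 1 of these 4, SOX2, was lower under quantile normalization and under median centring. Their summed intensity was 844 to 922 in control, 237 to 255 with NU7441 and 603 to 691 after knockdown, with SOX2 itself at 697 and 633, 111 and 75.3, and 499 and 435. The luminal sum was 2121 to 2206, 2151 to 2285 and 1945 to 2014 respectively, with EPCAM lower with NU7441 (-0.81 ± 0.14). Markers of cell types foreign to the line read lower: 5 of 7 basal markers were measured, 2 of them under 32 on all arrays, and summed to 207 to 222, 143 to 170 and 153 to 163. The 3 measured of 9 stromal markers, 1 under 32, summed to 94.2 to 103, 52.3 to 61.5 and 77.6 to 84.9. The 5 measured of 8 endothelial markers, 1 under 32, summed to 151 to 173, 107 to 118 and 128 to 142. The 3 measured of 9 leukocyte markers, 2 under 32, summed to 190 to 202, 168 to 168 and 178 to 202. These sums are of deposited values in the order control, NU7441, knockdown, and with NU7441 all but the luminal sum lay below both controls. The luminal sum includes KLK3, itself a member, which read 793 and 726 in control and 1213 and 969 with NU7441. KLK3 was the only luminal marker called higher with NU7441, so this sum is not independent of the members. Quantile normalization moved the median log2 fold change with NU7441 from -0.55 to -0.19 for neuroendocrine and from -0.52 to -0.16 for basal markers. It went from -0.98 to -0.69 for stromal, -0.49 to -0.17 for endothelial and -0.27 to -0.19 for leukocyte markers. The part of these markers, and of the larger number of NU7441 probesets at the floor, in the results on the 9 genes was not tested. The arrays read RNA of a whole culture, so fewer cells expressing a gene and less RNA per cell cannot be told apart.

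Over the 6 arrays the members fell into opposed patterns, given here as a description of points that share treatment and array. KLK3 and KLK4 varied together (Pearson r = 0.91), and KLK4 ran opposite to SGK1 (r = -0.99) and ODC1 (r = -0.99). KLK3 ran opposite to EAF2 (r = -0.97), and HERC3 and UAP1, whose treated arrays all lay above control, had r = 0.86. Among 6798 protein-coding genes brighter than the median, the 5 most like KLK3 were FOXO3, ANKRD13B, SREBF1, MAP1B and RIMKLB (r = 0.990 to 0.995). SREBF1, a sterol-regulated transcription factor, read 283 and 249 in control, 441 and 371 with NU7441, and 248 and 255 after knockdown. The 5 most like EAF2 were ZNF593, TMEM116, KAT7, GDF7 and MAGOHB (r = 0.992 to 0.998). ZNF593 read 143 and 163 in control, 74.6 and 99.1 with NU7441, and 207 and 239 after knockdown.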

How the data were processed

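Trizol-extracted RNA was amplified as cDNA with the Ovation Pico WTA system and labelled with biotin, per the labels' protocols. The deposited values are linear probeset intensity values with a floor of 16. How the authors summarised and normalized them, and on which genome build, is not given in the sources used here. Of 44629 probesets, 15835 had 1 gene symbol in the platform annotation, 0 had several and 28794 had none. All 15835 gene identifiers matched RefSeq, and 0 symbols changed. For 651 genes with more than 1 probeset the brightest was used.

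Values were put on the log2 scale with no further scaling, from the deposited intensities. One limma model (limma 3.58.1, R 4.3.3, eBayes with trend, 3 residual degrees of freedom, two-sided) covered all 6 arrays. Benjamini-Hochberg adjustment ran over 14812 genes at 0.05. Errors are limma standard errors and intervals are 95%. The number of arrays limits the precision. Folds compare geometric means. Like brightness means genes in the same 1-unit bin of mean log2 intensity, with all genes of 8 or more in a single bin. Promoter searches covered 250 bases upstream.

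The members, gene lists and tests were chosen with earlier results of these data known. Named genes are the members, up to 6 called genes or the 3 highest and 3 lowest per list, and preset partners. Further genes were named after their values were seen. Alternatives were quantile normalization, median centring, 16 subtracted, dim genes left out, other probeset rules, no trend, the compared groups alone, a replicate block and each array left out. Same-numbered replicates did not deviate together (r between -0.068 and -0.005), so no large shared effect of the replicate number was seen. This cannot show whether same-numbered arrays were prepared together, which the labels do not say.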

Additional observations from a re-analysis of the deposited data

How the results depend on the processing

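Of 402 alternative values for the 27 member differences, 350 kept direction and side of the threshold, 18 lost and 21 gained a call, and 13 changed sign. Many of these could not change direction. Each member has 1 probeset, so other probeset rules left its values as they were. Dropping the trend, the dim genes or an array outside the comparison also left the log2 fold change as it was. So did the groups alone and the replicate block. In these settings only the call could move. With NU7441 against control, 6 members were called, and 3 to 7 with 1 array left out (3 without control replicate 2). For knockdown against control, 0 were called, 3 with the compared groups alone, and 0 to 3 with 1 array left out. For knockdown against NU7441, 4 were called, 2 without the mean-variance trend, and 0 to 6 with 1 array left out. The replicate block kept these counts at 6, 0 and 4, and the labels do not say whether same-numbered arrays were paired.

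Androgen response genes called numbered 17 with NU7441 (10 to 24 with 1 array left out) and 1 after knockdown. The latter was 2 under quantile normalization, 2 under median centring, 0 with 16 taken off and 0 without the trend. It was 16 with groups alone and 0 with the replicate block. Of all 14812 genes, 114 were called after knockdown. In those settings, in the same order, 245, 108, 3, 4, 2843 and 37 were called. The larger swings of the list thus followed those of all genes. With 1 array left out, calls of the list and of all genes both varied. Fewer arrays were fitted with groups alone and with 1 array left out, and otherwise the cause was not tested.

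No sign change involved a called value. Median centring gave 0.049 for KLK3, 0.014 for SGK1 and 0.14 for ODC1 after knockdown against control, 0.21 for PLPP1 with NU7441, and -0.13 for UAP1 and -0.013 for PLPP1 for knockdown against NU7441. Quantile normalization gave 0.046 for SGK1 after knockdown. With 1 array left out, the values after knockdown against control ran from -0.31 (without knockdown replicate 1) to 0.052 (without knockdown replicate 2) for SGK1, which was 0.038 without control replicate 2, and from -0.078 to 0.068 for ODC1 in those omissions, which was 0.0010 without control replicate 2. FOLH1 with NU7441 ran from -0.0086 without NU7441 replicate 2 to 0.59 without replicate 1, and UAP1 for knockdown against NU7441 from -0.031 to 0.12 in the same omissions.

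Over all genes, 67.4% of NU7441 calls were lower as deposited, 47.8% under quantile normalization and 33.0% under median centring. The count of 4917 was 1051 without control replicate 1 and 868 without control replicate 2. With 2 arrays per group and a floor of 16, dim genes such as SGK1 are measured least well.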

Other observations

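Relatives of the members outside the androgen lists also differed with NU7441. Of 6 HERC ligases, HERC4 (0.65 ± 0.20) and HERC2 (0.62 ± 0.20) rose beside HERC3, and 0 fell, with a family median of 0.55. Among 12 phospholipid phosphatases PLPP1 did not pass, while PLPPR2 (0.90 ± 0.22) and PLPP5 (0.54 ± 0.15) rose and PLPP7 fell. PLPP7 read 58.1 and 63.4 in control, 17.9 and 17.4 with NU7441, and 73.1 and 84.2 after knockdown (-1.78 ± 0.23 for NU7441, limma adjusted p = 0.00131). Its NU7441 values lie just above the floor of 16.

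Around SGK1, 8 of 11 kinases of the SGK and AKT group and their substrates were measured. PDPK1, which activates both SGK1 and AKT, rose with NU7441 (0.89 ± 0.18, limma adjusted p = 0.00639), as did AKT2 (0.88 ± 0.17). NDRG2, a relative of the SGK1 substrate NDRG1, fell (-1.11 ± 0.28), whereas NDRG1 rose. NDRG1 read 110 and 140 in control, 228 and 226 with NU7441, and 255 and 213 after knockdown. Its knockdown difference was 0.91 ± 0.18 (limma adjusted p = 0.0569), called under quantile normalization and median centring. Among 6 relatives of FOLH1, NAALADL1 was lower as deposited (-1.04 ± 0.26) and under neither other scaling.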
